A study of Mus musculus with 2 samples.

Results

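Forkhead genes encode transcription factors that share a winged-helix DNA-binding domain, and the letter in each name (Foxa to Foxs) marks a subclass. The family was described here in fibroblasts grown from mouse embryos, a mesenchymal cell culture. Its members were taken by name alone, as every gene called Fox with a letter from a to s, a number and an optional last letter. This gave 44 of the 23365 genes of the authors' deposited table. Foxl2os, Foxred1 and Foxred2, whose names also begin with Fox, are not members.

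RNA was sequenced from cells with TET1/TET2 knocked out and from wild-type cells, with 1 library per genotype and no other treatment named. TET1 and TET2 oxidize 5-methylcytosine in DNA, and the series title asks how they bear on developmental genes. The labels do not say how the alleles were made, how many embryos or cultures were used, or their age. The authors' deposited table compares a condition B with a condition A, but no source used here says which genotype either stands for. The design text and the name of the table both put wild type before the knock-out, without tying either to A or B. Ratios are therefore given as B over A throughout, without a genotype.

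Levels are the authors' mean normalized count over both conditions, and levels of each condition alone and the depth of each library were not analysed here. Each genotype has 1 library, so differences lack a check by replicates, and p-values of the authors set 1 library against another and say nothing of variation within a genotype. The size rule asks for a difference of 2-fold or more, that is a log2 ratio of 1 or more either way, where the mean normalized count reaches 50. The authors' threshold stands for their adjusted p being under 0.1. In bulk RNA, fewer cells of a type and less RNA per cell cannot be told apart.

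Many forkhead factors bind DNA as monomers, and several subclasses act in the mesoderm and its fibroblasts. FoxC, FoxD, FoxF and FoxL factors pattern mesenchyme of the skeleton, kidney, gut wall and face, in part under hedgehog signals. FoxO factors leave the nucleus when insulin and growth factor signals activate the kinase AKT. FoxM1 drives genes of mitosis, while FoxK and FoxP factors mainly repress transcription.

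The 300-base promoter windows of 4 members are shown, because the series title concerns DNA methylation and most DNA methylation falls on CpG sites. The windows run from 250 bases before to 50 bases after a RefSeq transcript start on build GRCm38.p6, 5′ to 3′ on the gene's strand, with each CpG in capitals. Foxd1 and Foxc1 are the members that passed the authors' threshold, Foxk2 is the member with the highest level per kb, and Foxi2 is listed at 0.
Foxd1, chr13:98353995-98354294, plus strand: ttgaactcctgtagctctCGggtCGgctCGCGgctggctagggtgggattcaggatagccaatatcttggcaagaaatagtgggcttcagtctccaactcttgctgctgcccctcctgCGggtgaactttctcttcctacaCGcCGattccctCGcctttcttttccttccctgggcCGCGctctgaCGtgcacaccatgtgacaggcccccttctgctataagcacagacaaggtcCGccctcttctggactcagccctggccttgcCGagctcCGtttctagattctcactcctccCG
Foxc1, chr13:31806396-31806695, plus strand: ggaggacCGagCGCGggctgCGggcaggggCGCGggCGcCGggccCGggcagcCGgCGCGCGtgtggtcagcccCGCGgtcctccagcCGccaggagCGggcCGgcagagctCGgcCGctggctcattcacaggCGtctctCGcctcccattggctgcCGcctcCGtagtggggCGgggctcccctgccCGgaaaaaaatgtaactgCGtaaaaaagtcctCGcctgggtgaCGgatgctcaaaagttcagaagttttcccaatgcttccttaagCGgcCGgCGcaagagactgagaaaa
Foxk2, chr11:121259737-121260036, plus strand: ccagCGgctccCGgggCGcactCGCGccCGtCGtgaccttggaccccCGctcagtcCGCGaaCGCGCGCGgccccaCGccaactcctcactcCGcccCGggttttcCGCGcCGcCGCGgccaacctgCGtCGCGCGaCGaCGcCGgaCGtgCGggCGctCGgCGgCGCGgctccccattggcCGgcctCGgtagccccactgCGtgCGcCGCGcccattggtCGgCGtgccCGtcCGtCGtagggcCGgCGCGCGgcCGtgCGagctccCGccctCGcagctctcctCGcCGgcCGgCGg
Foxi2, chr7:135410117-135410416, plus strand: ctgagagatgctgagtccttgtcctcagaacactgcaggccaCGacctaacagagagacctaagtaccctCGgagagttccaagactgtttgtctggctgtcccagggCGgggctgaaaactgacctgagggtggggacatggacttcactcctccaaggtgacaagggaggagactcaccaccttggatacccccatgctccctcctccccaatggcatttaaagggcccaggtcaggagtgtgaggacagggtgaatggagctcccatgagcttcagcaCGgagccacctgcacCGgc

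The Foxk2 window held 59 CpG sites, the Foxc1 window 32, the Foxd1 window 15 and the Foxi2 window 5. RefSeq windows were matched for 28 of the 44 members. Their median was 23.5 CpG sites and the range 3 to 59, against a median of 7 over the windows of 27018 genes. The 11 members with a window and a mean normalized count of at least 50 had a median of 33 CpG sites, and the 17 members below that mean had a median of 13. In all genes of the table at the minimum mean that have a window (9228 genes) the median was 21. The letters CCAAT, on either strand, lay in 14 of the 28 windows, which is 50%, and in 37.8% of the windows of all genes. TGTTTAC, the core letters that forkhead factors bind, lay on either strand in 1 of the 28 windows, that of Foxa1, or 3.57%, and in 3.58% of those of all genes. These are counts of letters in a window of the reference and not measured methylation or binding.

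Of the 44 members, 21 had a mean normalized count of at least 50, 5 lay from 10 to under 50, 9 lay above 0 and under 10, and 9 were listed at 0. The 23 members under the minimum mean summed to 144 normalized counts, against 60601 for the whole family. Together the members took up 0.104% of all mean normalized counts in the authors' deposited table. The largest shares of the family's counts came from FoxP genes (25.7%) and FoxK genes (22.2%), followed by FoxJ (11.4%), FoxC (10.1%) and FoxO genes (9.33%).

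Per kb of the longest GENCODE transcript, the level was highest for Foxk2, at a mean normalized count of 1581 per kb. Foxp1 followed at 1326 per kb and Foxp4 at 1219 per kb. Foxc2 and Foxm1 lay next, at 935 and 926 per kb, and Foxj3 at 816 per kb. Among the 21 members at the minimum mean the median was 521 per kb, close to the 597 per kb of all such genes with a known length. Foxl1 (88.1 per kb) and Foxf2 (39.4 per kb) were the lowest of the 21. These levels depend on the transcript used for the length, and neighbours in the order cannot be separated without replicates.

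**Figure D1:**
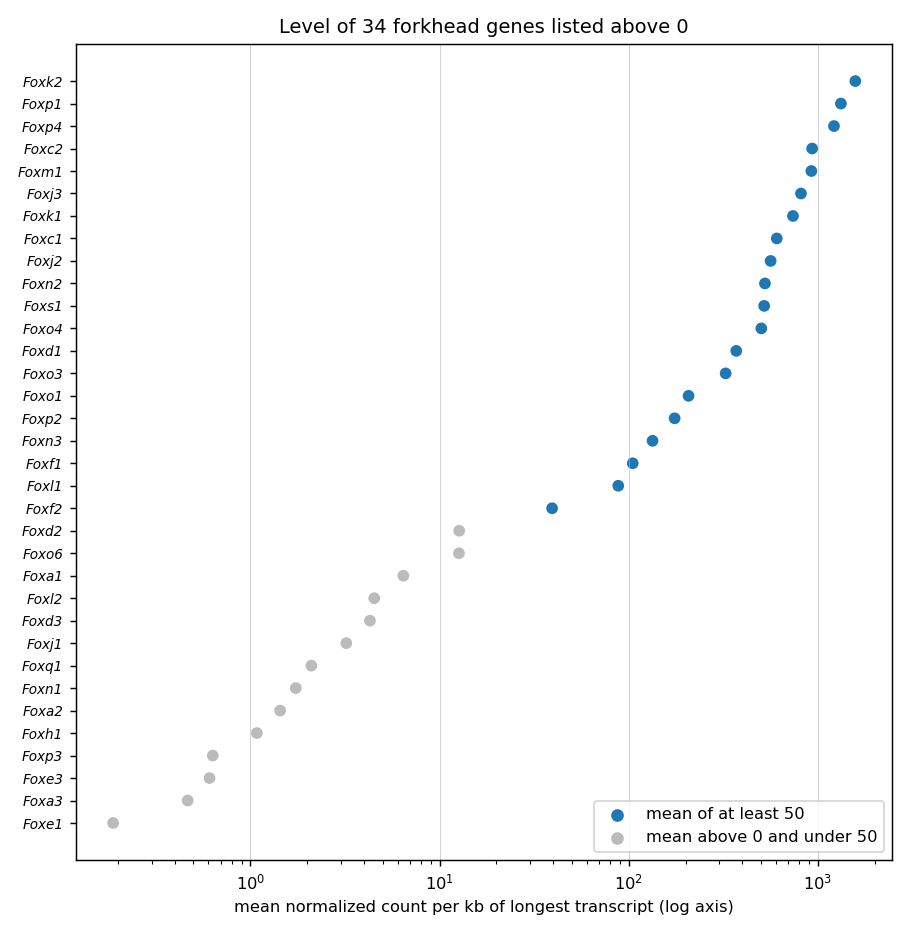
Mean normalized count over both conditions per kb of longest transcript (log axis) for 34 forkhead genes listed above 0, 1 point per gene. Blue points are the 20 genes drawn with a mean of at least 50, and they end at Foxf2, at 39.4 per kb.

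The following forkhead genes tied to other tissues were low or listed at 0. Foxa1, Foxa2 and Foxa3, pioneer factors of endoderm, had mean normalized counts of 20.6, 3.06 and 0.949 in the authors' deposited table. Foxp3, the factor of regulatory T cells, had a mean of 2.42, and its exons overlap those of Ccdc22 (mean of 1347), and the kit used gives no strand. Foxn1, needed for thymic epithelium, lay at 5.59 and Foxj1, the factor of motile cilia, at 8.43. Foxh1, a partner of Smad proteins in the early embryo, lay at 1.48. Foxe1 and Foxe3, of thyroid and lens, had means of 0.527 each and were listed at 0 in condition A, while Foxa3 was listed at 0 in condition B. Foxb1, Foxb2, Foxd4, Foxi1, Foxi2, Foxi3, Foxn4, Foxr1 and Foxr2 were listed at 0 in both conditions. The log2 ratios of the low members, each with an adjusted p of 1 in the authors' deposited table, were -1.17 for Foxa1, 1.15 for Foxa2, -0.85 for Foxh1, -0.36 for Foxj1, 0.96 for Foxn1 and -1.85 for Foxp3. Ratios at such means rest on few reads.

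Markers of those other tissues were mostly low. Of 8 endoderm markers, 4 were listed at 0 (Sox17, Cdx2, Hnf4a and Ttr). The minimum mean was reached by 1, which met the size rule downward in condition B. Of 7 immune markers measured, 3 were listed at 0, Cd3e and Emr1 among them. The fibroblast markers were all above the minimum mean, from 395 for Lum to 550534 for Fn1. These are means over both conditions, and 4 of the 10 fibroblast markers met the size rule upward in condition B, as given below.

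Among the 21 members at the minimum mean, 7 were lower in B under the size rule and 1 was higher. Those lower were Foxd1, Foxc1, Foxm1, Foxp1, Foxl1, Foxp2 and Foxc2. Over all 12401 genes at that mean, 9.6% were lower and 8.31% higher by the same rule, against 33.3% and 4.76% of the forkhead genes. The median log2 ratio of the 21 was -0.39, and that of all genes at that mean was -0.04. Log2 ratios were below 0 for 17 of the 21, or 81.0%, and for 52.8% of all genes.

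The authors' threshold was passed by 2 of the 35 members with a ratio, Foxd1 and Foxc1, both lower in condition B, against a background of 2.29% of 17339 genes. The same count of 2 held at an adjusted p under 0.05, where the background was 1.74%. At an unadjusted p under 0.05 in the authors' deposited table, Foxm1, Foxp1 and Foxp2 joined them, giving 5 members, against 6.28% of all genes.

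**Figure D2:**
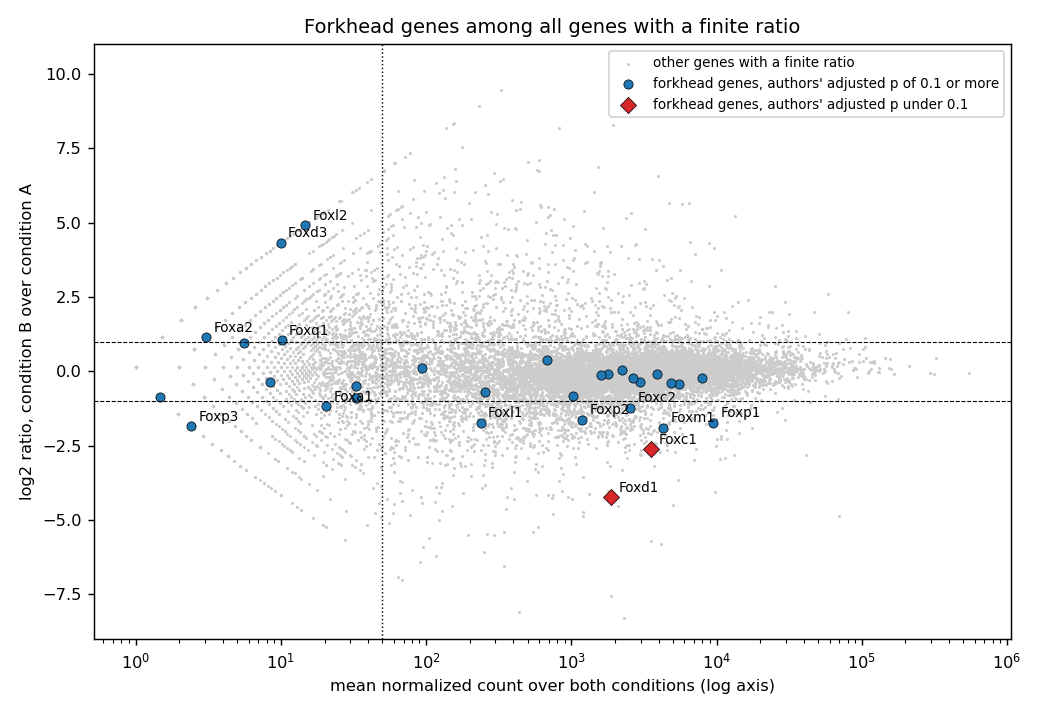
Log2 ratio of condition B over condition A against the mean normalized count over both conditions (log axis), grey for other genes and coloured for forkhead genes, with names beyond 2-fold either way. Dashed lines mark that size and the dotted line a mean of 50. Foxd1 at -4.23 and Foxc1 at -2.63 (red diamonds) passed the authors' threshold, and Foxd3 and Foxl2 lie high at means under 50.

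Genes of mesenchymal patterning held the 2 largest ratios among members at the minimum mean. Foxd1, which marks the stromal progenitors of the kidney and part of the facial and trunk mesenchyme, was lower in condition B by 18.8-fold in the authors' deposited table, at a mean normalized count of 1878 (adjusted p = 1.06e-05). Foxc1, needed for the skull, eye and blood vessels, was lower by 6.17-fold in the authors' deposited table, at a mean of 3550 (adjusted p = 0.00914). Its paralog Foxc2, needed for lymphatic vessels and the axial skeleton, was 2.34-fold lower at a mean of 2547 in the authors' deposited table, short of the threshold (adjusted p = 0.907). Foxl1, a factor of the mesenchyme beneath the gut epithelium, was 3.31-fold lower at a mean of 238 in the authors' deposited table (adjusted p = 1).

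Other genes of this group lay closer to 0. Foxf1, required in the mesenchyme of lung and gut, had a log2 ratio of -0.70 at a mean normalized count of 254, and Foxf2, of gut and palate mesenchyme, one of 0.12 at a mean of 93.1 in the authors' deposited table. Foxs1, known from pericytes and the neural crest, lay at 0.38 with a mean of 683. Foxd2, also a mesenchymal gene, was under the minimum mean, at 32.9, with a log2 ratio of -0.88. All 4 had an adjusted p of 1 in the authors' deposited table.

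Foxd3 and Foxl2, whose means were under the minimum, had the largest upward ratios of the members with a finite ratio. Both ratios rest on few reads. Foxd3, a factor of the early neural crest, was 20-fold higher in condition B at a mean of 9.96, with an adjusted p of 1 in the authors' deposited table. Foxl2, a factor of the ovary and pituitary, was 30-fold higher at a mean of 14.7 (adjusted p = 1 in the authors' deposited table). Foxl2os, which overlaps Foxl2 on the opposite strand, was listed at 0 in condition A at a mean of 6.32, and reads of the pair cannot be told apart without strand. The neural crest marker Sox10 had a log2 ratio of 4.98 at a mean of 31.0 in the authors' deposited table (adjusted p = 1). Foxq1, an epithelial factor, had a mean of 10.2 and a log2 ratio of 1.05.

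**Figure D3:**
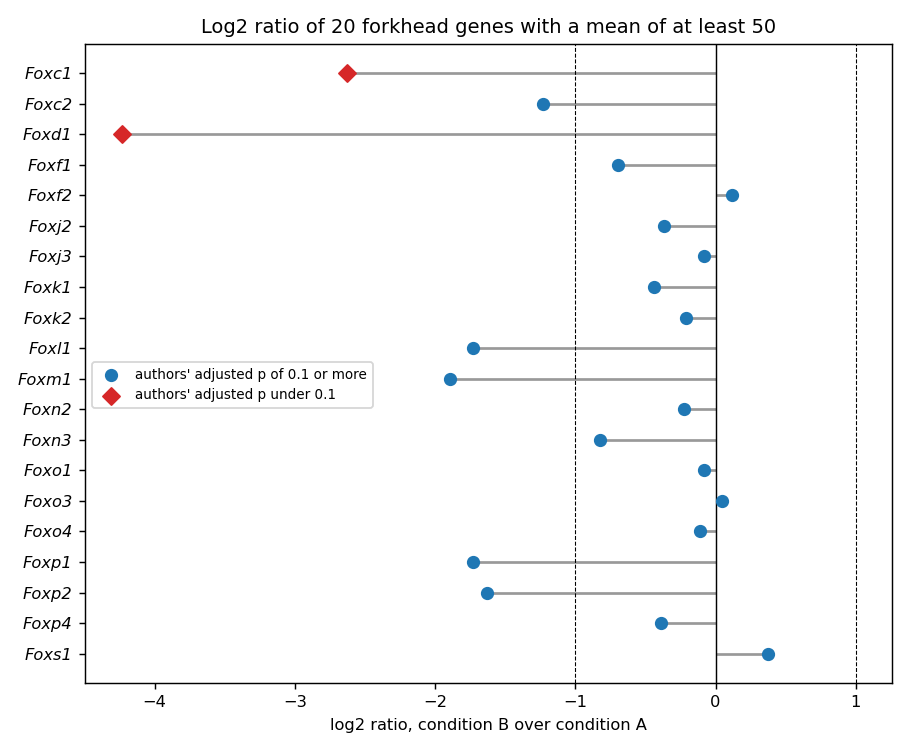
Log2 ratio of condition B over condition A for 20 forkhead genes whose mean normalized count reached 50, in order of name. Lines run from 0 to each value, dashed lines mark a size of 1, and red diamonds (Foxc1 and Foxd1) passed the authors' threshold. Of the points, 17 lie below 0.

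Several markers of cartilage were lower in condition B, as were Foxd1, Foxc1 and Foxc2. All 6 chondrocyte markers at the minimum mean met the size rule downward in condition B, their median log2 ratio being -2.59, and 2 passed the authors' threshold. Col2a1, the main cartilage collagen, had a log2 ratio of -4.87 at a mean normalized count of 69652 in the authors' deposited table (adjusted p = 9.30e-09). Comp, Acan and Matn3 lay at -3.11, -3.08 and -2.09 there, and Col9a1 and Matn1 were under the minimum mean. The means of the 8 markers over both conditions summed to 101210, and most of this sum is Col2a1. Comp, Acan and Matn3 had means of 569, 125 and 97.2. Among fibroblast markers, 4 of 10 were higher in B under the size rule and 0 lower. The 4 were Dcn, Lum, Thy1 and Pdgfra, at 5.66, 3.29, 2.88 and 2.54 on the log2 scale of the authors' deposited table, and all passed the authors' threshold. Whether a different mix of mesenchymal cells underlies the Foxd1, Foxc1 and Foxc2 ratios was not tested.

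Markers of further cell types were compared in the same way. Of 7 endothelial markers, 3 reached the minimum mean and all 3 were higher in B under the size rule. Emcn, with a log2 ratio of 6.06 at a mean normalized count of 96.3, passed the authors' threshold (adjusted p = 0.0638 in the authors' deposited table), and Kdr lay at 2.78 without passing. Pecam1, Cdh5 and Tie1 were near 0, at means of 9.80, 8.43 and 0.474. Of 8 epithelial markers, 2 reached the minimum mean and both were lower in B under the size rule. Krt7 had a log2 ratio of -7.54 at a mean of 1875 and passed the authors' threshold (adjusted p = 6.35e-13 in the authors' deposited table). Krt18 lay at -2.29 there without passing, while Epcam and Cdh1 lay at means of 4.37 and 21.3. Neither list was tested for a part in the forkhead ratios.

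The remaining marker lists held few genes at the minimum mean. Of 7 immune genes listed, 2 reached it, 1 of them higher in B under the size rule. Of 6 neural and crest genes 4 reached it and 2 were higher. Of 5 muscle genes 1 reached it and was higher, with Myod1 and Myog listed at 0. The mesothelial list had 1 of 4 and the adipocyte list 2 of 4, and in each 1 gene was lower. None of the 6 pluripotency and germ cell genes reached it, and 0 genes of these 6 lists passed the authors' threshold.

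Genes known as FoxC targets were few at the minimum mean. Of these, 2 of 4 were higher in B under the size rule and 0 lower, and 0 passed the authors' threshold. Among all genes at that mean, 8.31% were higher and 9.6% lower. Tbx1, a factor of the pharyngeal arches, lay at a log2 ratio of 2.41 and Hey2, a Notch target, at 1.31 in the authors' deposited table. Msx2 lay at 0.84 and the integrin gene Itgb3 at -0.92 there, and Dll4 and Cxcr4 were under the minimum mean.

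In the hedgehog pathway, 2 of 9 genes at the minimum mean (22.2%) met the size rule downward in condition B and 0 upward. Among all genes at that mean, 9.6% were lower and 8.31% higher. The median log2 ratio of the 9 was -0.23, with 0 genes past the authors' threshold. The receptor gene Ptch1, itself a target of the pathway, had a log2 ratio of -1.88 at a mean normalized count of 861 in the authors' deposited table (adjusted p = 0.330). Cdon, a coreceptor gene, lay at -1.07, the inhibitor Hhip at -0.90 and the signal transducer Smo at -0.42. Gli1, a target gene, was under the minimum mean at 39.3, with a log2 ratio of -1.87. Of the ligand genes, Shh was listed at 0 and Ihh and Dhh had means of 2.53 and 21.1.

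Foxm1, which drives genes of G2 and mitosis, was 3.72-fold lower in condition B at a mean normalized count of 4306 in the authors' deposited table, short of the threshold (adjusted p = 0.139). Among all genes at the minimum mean, 9.6% were lower and 8.31% higher by the size rule. Of 23 genes known as FoxM1 targets, 21 (91.3%) met the size rule downward in condition B and 0 upward. The median log2 ratio of the 23 was -1.56. Past the authors' threshold were 5 of them, each lower: Cenpf, Bub1b, Plk1, Ccna2 and Top2a. Cenpf, a kinetochore gene, lay at -2.32 (adjusted p = 0.0371), and the spindle checkpoint gene Bub1b and the mitotic kinase gene Plk1 at -2.15 and -2.08 in the authors' deposited table. Nek2, a centrosome kinase gene, lay at -2.05 without passing. The 2 targets outside the size rule were Cks1b at -0.58 and Cenpb at 0.27.

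Partners of FoxM1 on cell cycle promoters were in part lower too. Of 6 genes, Mybl2 and Lin9 were lower in B under the size rule, with log2 ratios in the authors' deposited table of -2.01 and -1.12, and 0 passed. These 2 are 33.3% of the list, against 9.6% lower among all genes at the minimum mean. Lin54 lay at -0.81 and Rbbp4 at -0.18. Of 7 division markers, 5 met the size rule downward in condition B, and the threshold was passed by 2, Mki67 at -2.26 and Top2a at -1.97. These lists measure the share of dividing cells as well as the level in each cell, and the part of cell division in the Foxm1 ratio was not tested.

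FoxP factors repress transcription, with the partners CTBP and NuRD. Foxp1, which acts in heart, lung and B cell development, was 3.32-fold lower in condition B at a mean normalized count of 9520 in the authors' deposited table (adjusted p = 0.204). Foxp2, known in humans for its role in speech, was 3.09-fold lower at a mean of 1184 (adjusted p = 0.490 in the authors' deposited table). The third FoxP gene at the minimum mean, Foxp4, had a log2 ratio of -0.39 at a mean of 4874 there. Of 10 corepressor genes, 0 met the size rule in either direction, 0 passed the authors' threshold and the median log2 ratio was -0.17. The largest in size were Ctbp2 at -0.36, Chd4 at -0.35, Gatad2b at -0.32 and Hdac1 at -0.27 in the authors' deposited table.

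FoxO genes, which act in growth arrest, stress resistance and autophagy, had ratios close to 0. Foxo1 lay at a log2 ratio of -0.09 with a mean normalized count of 1798, Foxo3 at 0.05 with 2232 and Foxo4 at -0.11 with 1591 in the authors' deposited table. Foxo6 was under the minimum mean, at 33.2, with a log2 ratio of -0.51. The RNA level does not show where the proteins are, and FoxO activity is set mainly by phosphorylation.

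Of 25 regulators of FoxO, 2 (8%) met the size rule, both lower in condition B. This is near the 9.6% lower among all genes at the minimum mean. Pik3cb, a catalytic subunit of PI3 kinase, had a log2 ratio of -1.92 (adjusted p = 0.160) and the kinase Sgk1 one of -1.14 in the authors' deposited table. Irs1, an adaptor of insulin signalling, lay at 0.85 and the nuclear exporter Xpo1 at -0.73, and the median of the list was -0.13 with 0 genes past the authors' threshold. Of 29 genes known as FoxO targets, 23 reached the minimum mean, 4 were lower in B under the size rule and 0 higher. The 4 make up 17.4% of the 23, against 9.6% lower and 8.31% higher among all genes at that mean. Cdkn1b, the cell cycle inhibitor p27, lay at -2.41 and was the gene that passed (adjusted p = 0.0252 in the authors' deposited table). Rictor, Pdk4 and Sesn3 lay at -1.26, -1.25 and -1.25 without passing, and the median was -0.12.

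FoxK, FoxJ and FoxN genes did not meet the size rule. Foxk1 and Foxk2, repressors of autophagy genes that also regulate glucose use, lay at -0.44 and -0.21 on the log2 scale, at mean normalized counts of 5504 and 7951 in the authors' deposited table. Of 7 FoxK partner genes, of the Sin3 and BAP1 complexes, 0 met the size rule and 0 the authors' threshold, with a median of -0.19 and values of -0.58 for Hcfc1, -0.55 for Asxl1, -0.46 for Sin3a and -0.19 for Bap1. Foxj2 and Foxj3 lay at -0.36 and -0.08, and Foxn2 and Foxn3 at -0.22 and -0.82, and Foxn3 was the nearest to the size rule of the members at the minimum mean that did not meet it. All 6 had an adjusted p of 1 in the authors' deposited table. Reads of Foxj2, Foxo1, Foxf1 and Foxf2 are uncertain to the extent that each overlaps a gene on the opposite strand in GENCODE. For Foxf1 and Foxf2 that gene is annotated as a microRNA. Foxq1, under the minimum mean, overlaps the protein-coding gene A530084C06Rik on the opposite strand. Foxm1 (with Tex52 and Gm44596) and Foxp1 (with Gm20696) overlap protein-coding genes on the same strand, and how the authors' counting split such reads is not stated. None of Tex52, Gm44596 and Gm20696 is listed under that name in the authors' deposited table.

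Genes of motile cilia, the programme of Foxj1, were mostly low. Of 17 such genes in the table, 7 reached the minimum mean, of which 2 met the size rule upward and 1 downward in condition B. Among all genes at that mean, 8.31% were higher and 9.6% lower. The median log2 ratio of the 7 was 0.15. Tppp3, a tubulin-binding protein gene, lay at 2.52 and passed the authors' threshold (adjusted p = 0.0721 in the authors' deposited table), and Tekt2 lay at 1.43. Ccdc39 lay at -1.19 and Rfx2 at -0.99 there, and Tekt1 was listed at 0.

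**Figure D4:**
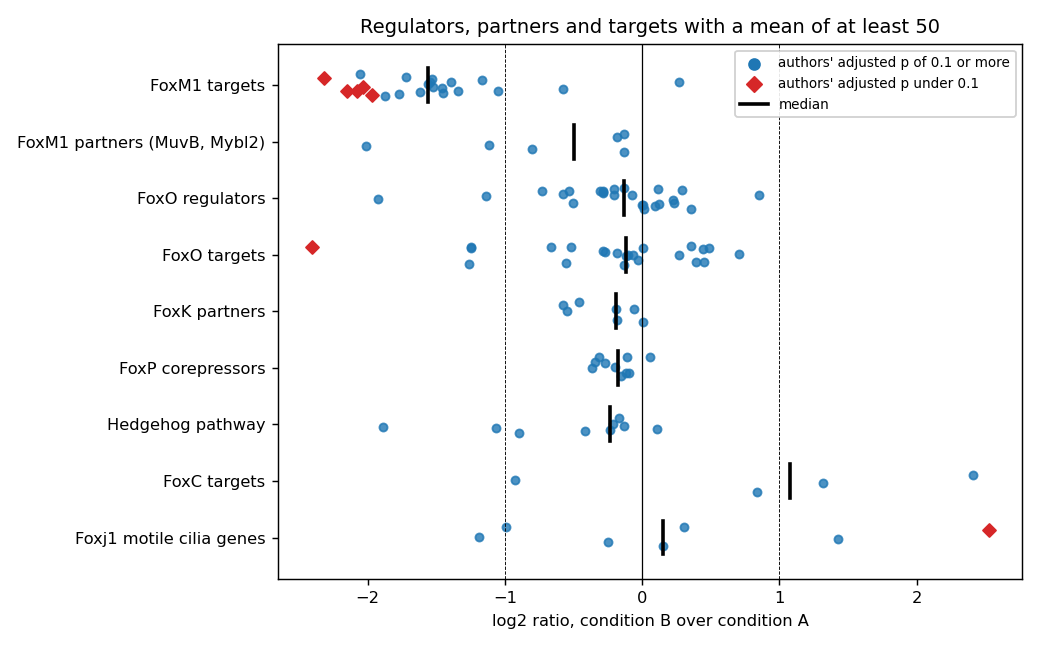
Log2 ratio of condition B over condition A for genes whose mean normalized count reached 50 in 9 lists tied to forkhead factors, 1 point per gene, with a black bar at each median and red diamonds for genes past the authors' threshold. The FoxM1 targets have a median of -1.56, while the FoxO, FoxK and FoxP lists have medians from -0.19 to -0.12.

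Forkhead genes lie within 2 listed genes of each other in groups on chromosomes 13, 8 and 4. On chromosome 13, Foxq1, Foxf2 and Foxc1 follow in this order, at 1.05, 0.12 and -2.63 on the log2 scale of the authors' deposited table, of which Foxq1 rests on a mean normalized count of 10.2. Gmds, the next gene, lay at -0.92. On chromosome 8 the order is Foxf1, Mthfsd, Foxc2 and Foxl1, with log2 ratios of -0.70, -0.02, -1.23 and -1.73 there. Mthfsd, a gene of no forkhead family that sits between the members, was thus closer to 0 than its neighbours on either side. The long noncoding RNA gene Fendrr, beside Foxf1, had a mean of 4.48 and a log2 ratio of -0.17. On chromosome 4, Foxd2 and Foxe3 are both under the minimum mean, and 9130206I24Rik between them had a log2 ratio of -1.71 at a mean of 81.1 in the authors' deposited table (adjusted p = 1).

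Neighbours of other members were also compared, the 2 listed genes on each side in RefSeq order. Beside Foxd1, Btf3 and Ankra2 lay at 0.05 and 0.23 on the log2 scale in the authors' deposited table, and the genes on its other side were under the minimum mean. Beside Foxm1, Rhno1 and Tulp3 lay at -0.33 and -0.05 and Nrip2 at -3.04. Beside Foxp1, Mitf and Eif4e3 lay at -0.11 and -0.13. Next to Foxp2, Mdfic lay at 0.04 and Tfec at 4.47. Of 15 neighbours of the 8 members that met the size rule, 2 were higher and 2 lower by that rule and 0 passed the authors' threshold, with a median log2 ratio of -0.02. Over all genes at the minimum mean, 8.31% were higher and 9.6% lower.

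Among all 42 neighbours of members at the minimum mean, 8 were higher and 6 lower in B under the size rule, and the median log2 ratio was 0.05. These neighbours reached the minimum mean too. Of all genes at that mean, 8.31% were higher and 9.6% lower by the same rule. Dusp15, near Foxs1, lay at 3.37 in the authors' deposited table and was the neighbour that passed the authors' threshold (adjusted p = 0.0795). Of the others higher, Tfec is given above, and further ones were Sdk1 at 2.22, Mdfi at 1.5, AA415398 at 1.29, Rab40b at 1.19 and Ston1 at 1.01. Besides Nrip2, those lower included Mgst2 near Foxo1 at -4.36, at a mean of 68.1, close to the minimum. Further ones were Efcab11 near Foxn3 at -2.93, Slc7a3 near Foxo4 at -2.06 and Tpx2 near Foxs1 at -1.34. Tpx2 is also on the list of FoxM1 targets.

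**Figure D5:**
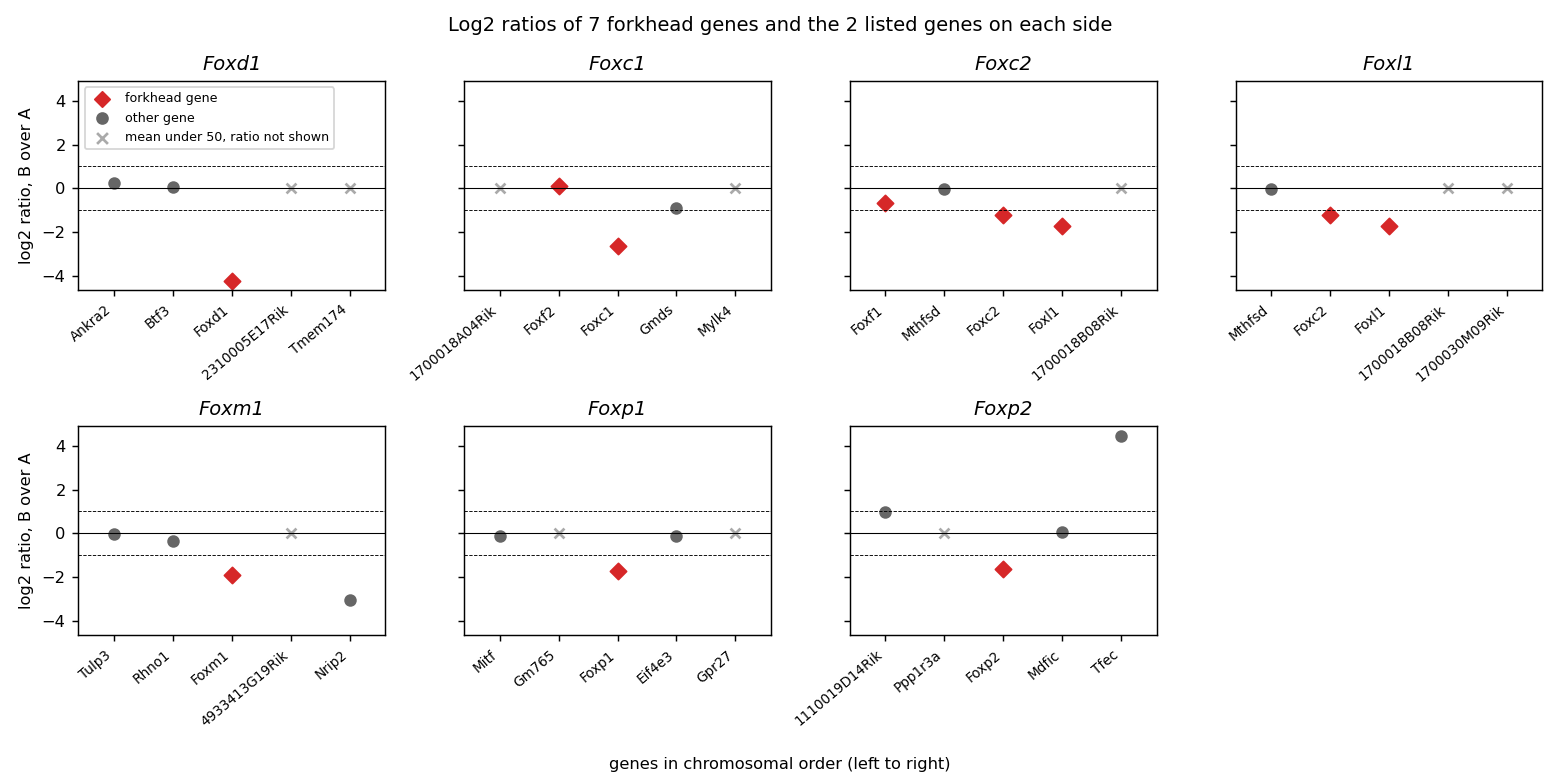
Log2 ratio of condition B over condition A for the 7 forkhead genes lower in B under the size rule and the 2 listed genes on each side in chromosomal order, 1 panel per gene. Red diamonds are forkhead genes, grey circles other genes, and crosses genes with a mean under 50, whose ratio is not shown. Foxd1 lies at -4.23 beside Btf3 at 0.05.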

How the data were processed

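The members and gene lists were chosen with earlier results of these data known. Per the labels' protocols, TRIzol RNA of frozen cell pellets was made into TruSeq RNA v2 libraries. TopHat2 2.0 and DESeq are the tools, and mm9 the build, per the submitters' processing notes. No counter, annotation or dispersion setting is stated there.

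Levels are the authors' deposited signal, size-factor normalized gene counts averaged over A and B. The authors' deposited fold, or ratio, is B over A, and their deposited log2 column is its base-2 logarithm with no pseudocount (15657 finite ratios). The authors' adjusted p-values equal Benjamini-Hochberg values over 17339 genes, and 6026 genes are listed at 0. The 2 columns of single conditions match neither sample's labels by name and were not used.

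No test was run. Members were picked by name, and 21 lists (9 of regulators, partners and targets, 12 of markers) were described by counts and medians. Each list's count under the size rule is to be read beside 9.6% lower and 8.31% higher among all genes at the minimum mean. A member, its neighbours and a few marker genes are not reported here by name, though the counts include them. The other members are named, with up to 4 genes per list by size of log2 ratio and the neighbours of members at the minimum mean that met the size rule or lie between members. Other genes were named after their values were seen. Lengths and overlaps are from GENCODE M21, order and promoters from RefSeq GRCm38.p6 (the first window by coordinate). Python 3.11.15 and pandas 2.3.3 were used, and the counts and centring were tested on simulated data.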

Additional observations from a re-analysis of the deposited data

How the results depend on the processing

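With 1 library per genotype, no replicate could be left out. No paired analysis was possible because the values come from no test and each genotype has 1 library. Centring on the median or on the trimmed mean of all genes (30% of ratios and 5% of means trimmed at each end) changed the sign of 0 members and left the same 7 members lower and 1 higher. The median log2 ratio of the family, -0.39, was -0.35 under either centring, -0.41 with a minimum mean of 10 or of 200, and -0.36 with no minimum. The count of 7 lower was 8 of 26 with a minimum mean of 10, where 10.6% of all genes were lower. It was 7 of 20 with a minimum of 200 (8.32% of all genes) and 10 of 35 with no minimum (13.5% of all genes). At a size of 1.5-fold, 9 of 21 were lower, against 17.4% of all genes. At a size of 4-fold, 2 of 21 were lower and 0 higher, against 2.95% and 3.84% of all genes. The count of 1 higher was 3 of 26 with a minimum mean of 10 (10.9% of all genes) and 7 of 35 with no minimum (18.2% of all genes), and the members added have means under 50. An unadjusted p under 0.05 gave 5 members in place of 2. The counting error of ratios at low means was not estimated, since library depths were not analysed here.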
